A study of Mus musculus with 15 samples.

Results

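Oxidative phosphorylation (OXPHOS) is carried out in the inner mitochondrial membrane by 4 respiratory chain complexes and the ATP synthase, and the nuclear genome encodes all but a handful of their subunits. Complexes I and II pass electrons from NADH and succinate to ubiquinone, complex III hands them to cytochrome c, complex IV reduces oxygen with them, and complex V makes ATP from the proton gradient that complexes I, III and IV build. The retinal pigment epithelium (RPE) is a mitochondria-rich monolayer that is known to rely on this pathway while it supports the photoreceptors. The genes described here are the nuclear-encoded subunit genes of complexes I to V, taken by gene symbol alone (the Nduf, Sdh, Uqcr, Cox and Atp5 names and Cyc1) and with no use of their measured values. The mRPE count table holds 78 of them among 20910 genes, with 37 genes of complex I, 4 of complex II, 9 of complex III, 10 of complex IV and 18 of complex V. The RPE/choroid count table holds 81 among 25038 genes, the same ones plus Cox6b2, Cox7a1 and Cox8b of complex IV. The name pattern takes Atp5if1, an inhibitor of the ATP synthase, and it leaves out Cox4i1, Cox4i2, Cox7a2l, Ndufab1 and Ndufa4l2, which are given as a separate list. Ndufa4 is counted with complex I by its name, although its product is now placed in complex IV.

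Poly(A) RNA was sequenced in 15 libraries, 9 of cultured mouse RPE cells (mRPE) and 6 of mouse RPE/choroid tissue. The mRPE cells came from pooled adult C57BL/6J mice and were immortalised with the viral oncogenes E6 and E7. The 4 WT libraries are of cells labelled mRPE WT (the control cells of the methods carried Cas9 and a scrambled guide RNA), and the Prom1-KO libraries are of 2 clones edited in exon 5 of Prom1, with 3 libraries of clone KO22 and 2 of clone KO26. The tissue was dissected from WT mice (n = 3) and from mice labelled Prom1-KO (n = 3), made with floxed Prom1 and a Cre driven by Rpe65 that was induced with tamoxifen. Whether the WT mice also received tamoxifen is not given in the sources used here, so in the tissue an effect of the treatment cannot be told apart from that of the genotype. Prom1 encodes prominin-1, a pentaspan glycoprotein, and the study asked what its loss changes in RPE. Each clone stands for 1 editing event, so an effect of Prom1 loss cannot be told apart from other differences of that clone, and nothing in the labels says that the libraries of a group came from separate cultures, so p-values measure the spread between these libraries. The library names carry the numbers 8995 and 9262, called sequencing batches here: WT replicate 1, KO22 replicate 1 and KO26 replicate 1 are of batch 8995, and the other 6 mRPE libraries are of batch 9262.

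Total counts were 8076188 to 27537863 in the mRPE libraries and 48154444 to 61766179 in the tissue libraries, so counting error is small for most of these genes. Prom1 itself has no entry in the mRPE counts, for WT or for the clones, so the knockout of the clones could not be checked in these data. In the tissue its level was 48.7, 49.6 and 53.3 CPM (counts scaled to the effective library size) in WT and 49.9, 48.1 and 35.5 CPM in the libraries labelled Prom1-KO, with a log2 fold change of −0.18 ± 0.16 (SE, edgeR's quasi-likelihood test, adjusted p = 0.824). Of 16 RPE markers, the mRPE table holds 4, at a summed level of 8.17 to 39.95 CPM. Rpe65 is not among the 4. The authors removed genes with low counts before depositing the counts, and the markers absent from them have no level to report in the cultured cells. The 10 fibroblast and smooth muscle markers in the table summed to 13827 to 19545 CPM in WT, 5834 to 9053 CPM in KO22 and 22145 to 23028 CPM in KO26. The 22 proliferation markers summed to 1173 to 1496 CPM in WT, 3267 to 5622 CPM in KO22 and 2512 to 3184 CPM in KO26. The part of these shifts in the values below was not tested.

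Several of these promoters carry the binding sequences of NRF1, the ETS factor GABP and YY1, regulators known to act on nuclear genes for mitochondrial proteins, and the matches are shown here as sequence context for the genes that hold them. Of the 81 genes, 66 matched an entry of the RefSeq promoter table (build GRCm38.p6, 250 bases before and 50 after the gene's start), 53 by symbol and 13 by synonym. The letters CGCATGCG, the palindromic core of the NRF1 site, stood in 8 of the 66 promoters (12.1%) and in 1.91% of all 27025 promoters in the table. The 8 windows of 30 bases follow, each on the gene's strand with the match in capitals.
Uqcrc1: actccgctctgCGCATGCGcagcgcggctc
Atp5mc2: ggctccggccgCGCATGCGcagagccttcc
Atp5me: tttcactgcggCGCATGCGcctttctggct
Atp5mg: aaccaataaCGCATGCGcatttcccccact
Cox6a1: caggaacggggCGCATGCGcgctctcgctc
Ndufa11: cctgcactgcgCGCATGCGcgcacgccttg
Ndufa8: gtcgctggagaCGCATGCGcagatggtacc
Uqcr11: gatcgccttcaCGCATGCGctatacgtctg
In 7 of them the match began before the gene's start, from base −241 (Atp5mg) to base −5 (Uqcr11) counted from it, while in Uqcrc1 (window at chr9:108936668-108936697, plus strand) it began at base 32 of the transcript. The YY1 letters AAGATGGCG stood in 6 of the 66 promoters (9.09%) against 1.49% of all promoters. Each match lay on the gene's strand and began between bases 23 and 36 of the transcript.
Ndufs6: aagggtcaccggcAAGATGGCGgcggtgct
Ndufs7: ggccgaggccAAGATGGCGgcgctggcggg
Ndufs4: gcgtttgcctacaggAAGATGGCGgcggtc
Ndufa9: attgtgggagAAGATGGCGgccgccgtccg
Ndufc1: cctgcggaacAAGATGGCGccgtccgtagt
Atp5mf: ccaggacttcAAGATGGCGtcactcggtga
The ETS letters CCGGAAGT, searched on both strands like the others, stood in 5 of the 66 (7.58%) against 4% of all. The 5 were Atp5pd, Cox8a, Ndufs3, Uqcr11 and Uqcrh, and Cox8a held them at 2 places. Both Cox8a matches lie on the opposite strand and so read ACTTCCGG here. The first begins before the start, at base −6, and runs across it, and the second begins at base 32.
Cox8a, before the start: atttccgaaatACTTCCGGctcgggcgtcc
Cox8a, after the start: tcagcgccggaACTTCCGGctggttcggcc
The common CCAAT box stood in 28 of the 66 (42.4%) against 37.9% of all promoters. A match is a description of letters and not of binding, and of the 20 genes with a promoter entry that were called higher in KO22 below, 2 held the NRF1 core (Uqcrc1 and Atp5mc2) and 0 held the ETS or YY1 letters.

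In WT mRPE the subunit genes together took 0.321% to 0.464% of all counts. Complex V genes made up 52.4% ± 1.13 of their summed CPM (SD, n = 4), complex I genes 25.5% ± 1.13, complex IV genes 8.14% ± 1.07, complex III genes 7.31% ± 0.339 and complex II genes 6.61% ± 0.865. Per kilobase of the canonical transcript, the level was highest for Atp5f1b and Atp5f1a, the catalytic beta subunit and the alpha subunit of the ATP synthase, at 339 and 184 CPM per kilobase, followed by Cox6a1 at 127. In KO22 the complex V genes took 56.0% ± 1.55 and the complex I genes 20.8% ± 0.602 of the sum (n = 3). In WT and in KO26, though not in KO22, the summed levels of complexes I, IV and V lay far apart between the batches. For complex I the sum was 1213 CPM in WT replicate 1 and 821, 836 and 784 CPM in WT replicates 2 to 4, against 939, 1019 and 1191 CPM in KO22 and 1599 and 753 CPM in KO26. For complex IV it was 494 CPM in WT replicate 1 and 231, 243 and 238 CPM in the others, against 396, 343 and 495 CPM in KO22 and 645 and 201 CPM in KO26. Only for complex III did the KO22 sums (387, 450 and 510 CPM) lie above every WT sum (355, 218, 245 and 231 CPM), with KO26 at 500 and 233 CPM.

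**Figure D1:**
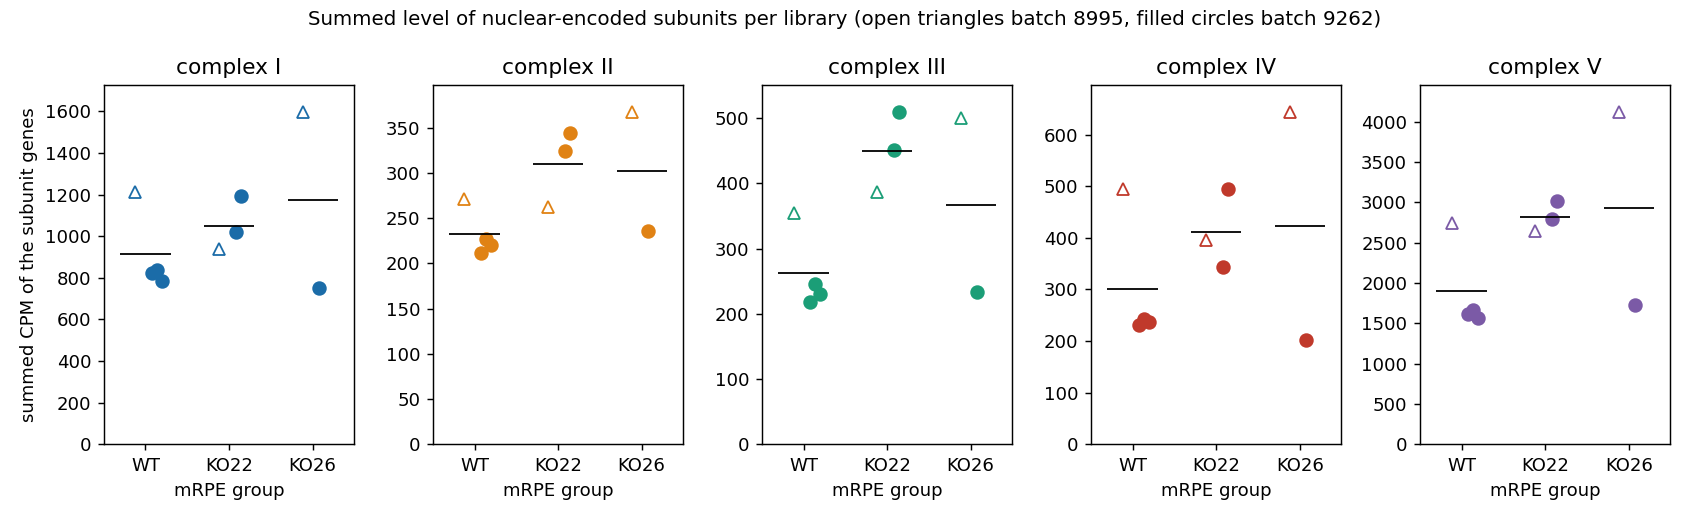
Summed CPM of the nuclear-encoded subunit genes of each complex in the 9 mRPE libraries, with open triangles for batch 8995, filled circles for batch 9262 and a bar at the group mean. The WT and KO26 libraries of batch 8995 lie above those of batch 9262 in every complex, and the complex III sums of KO22 lie at 387 to 510 CPM, above the WT sums.

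KO22 was first compared with WT over the 7 libraries, with the batch as a term of the fit. Of the 77 subunit genes tested, 4 were higher in KO22 past both limits of the study (adjusted p below 0.05, with a log2 fold change beyond 1.2 either way), and 0 were lower past both. The 4 were Uqcrc1 and Cyc1 of complex III, Sdhb of complex II and Cox7a2 of complex IV. Over all 20455 genes tested, 11.4% were higher and 13.8% lower past both limits. By the adjusted p alone 25 were higher and 3 lower, against 26.9% and 26.1% of all genes. Their median log2 fold change was 0.32, beside −0.03 for all genes, and 59 of the 77 lay above 0. For the lower direction past both limits, DESeq2's Wald test also called 0 members, and 3 members were lower at an unadjusted p under 0.05. These calls come from a fit that takes the KO22 difference to be the same in both batches, which the within-batch values further on bear on.

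**Figure D2:**
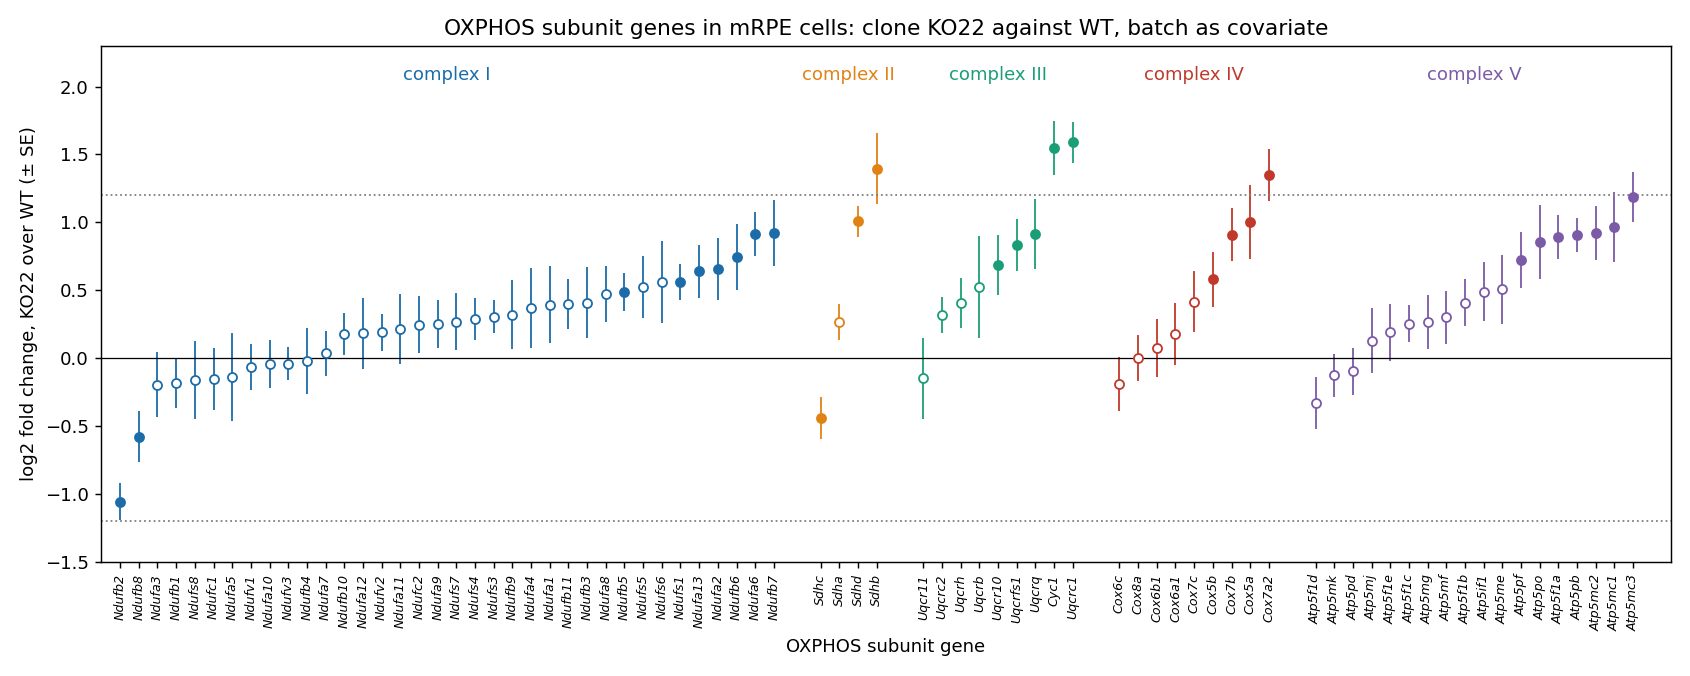
Log2 fold change of KO22 over WT for 76 of the 77 subunit genes tested, with bars of 1 SE, ordered within each complex. Filled points passed an adjusted p of 0.05 and the dotted lines mark 1.2 and −1.2; the 4 points past the upper line are Sdhb, Cyc1, Uqcrc1 and Cox7a2, and Ndufb2 is lowest at −1.06.

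Complex III held the highest values. Uqcrc1 (chr9:108765701-108778710, GRCm39, plus strand) encodes a core protein of the complex. Its level was 36.2, 24.3, 28.4 and 25.8 CPM in WT, 75.2, 89.3 and 94.5 CPM in KO22, and 57.3 and 29.7 CPM in KO26. All KO22 libraries lay above all WT and KO26 libraries. The log2 fold change was 1.59 ± 0.15 (SE, adjusted p = 3.01e-05). Cyc1 (chr15:76227204-76230462, plus strand) encodes cytochrome c1, the heme protein that passes electrons to cytochrome c. It stood at 33.3, 23.2, 22.8 and 26.6 CPM in WT and at 55.8, 88.7 and 89.2 CPM in KO22, with 55.3 and 25.2 CPM in KO26. KO22 and WT did not overlap, and the log2 fold change was 1.55 ± 0.20 (adjusted p = 0.000164). Uqcrfs1, the Rieske iron-sulfur protein, rose by 0.83 ± 0.19 on the log2 scale (adjusted p = 0.00482), from 28.01, 15.9, 20.4 and 22.2 CPM to 32.3, 39.5 and 43.8 CPM. The small accessory subunits Uqcrq and Uqcr10 were also called higher (log2 fold changes 0.92 and 0.69), with KO22 replicate 1 slightly below WT replicate 1 in both. Uqcrc2, the second core protein, did not pass (0.32 ± 0.13, adjusted p = 0.0692), and Uqcr11 was the lowest of the complex at −0.15. In all 5 of 9 complex III genes were called higher and 0 lower.

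Complex II, which is also the succinate dehydrogenase of the citric acid cycle, was split. Sdhb (chr4:140688502-140709380, plus strand), the iron-sulfur subunit, was at 12.4, 8.57, 9.92 and 8.32 CPM in WT and at 15.3, 29.7 and 34.1 CPM in KO22, with 23.2 and 9.95 CPM in KO26. The lowest KO22 library, replicate 1, was close to the highest WT library, and the log2 fold change was 1.40 ± 0.26 (adjusted p = 0.0017). Sdhd, a membrane anchor subunit, stood at 52.8, 39.8, 42.0 and 39.6 CPM in WT and at 88.2, 80.8 and 95.1 CPM in KO22 (log2 fold change 1.01 ± 0.12, adjusted p = 9.61e-05). The other anchor subunit, Sdhc, was lower, at 58.9, 31.9, 39.1 and 35.5 CPM in WT and 31.0, 27.9 and 32.3 CPM in KO22 (−0.44 ± 0.16, adjusted p = 0.038), and the ranges overlapped. Sdha, the flavoprotein, did not pass, at a log2 fold change of 0.26 ± 0.13 (adjusted p = 0.126). The 4 subunits of 1 complex thus did not move together in KO22.

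Of the 9 complex IV genes tested, 4 were higher and 0 lower. Cox7a2 (chr9:79653049-79667162, minus strand), the widely expressed form of subunit 7A, was at 31.07, 15.01, 15.51 and 13.92 CPM in WT, 53.8, 35.3 and 53.8 CPM in KO22 and 46.4 and 14.1 CPM in KO26 (log2 fold change 1.35 ± 0.19, adjusted p = 0.000327). Every KO22 library was above every WT library, and KO26 replicate 1 lay among the KO22 values. Cox7b rose by 0.91 ± 0.20 (adjusted p = 0.00358). Cox5a and Cox5b, the nuclear-encoded subunits on the matrix side, rose by 1.00 ± 0.27 and 0.58 ± 0.21 (adjusted p = 0.0121 and 0.0381), but their KO22 levels (36.5, 45.7 and 54.4 CPM for Cox5a) overlapped with WT replicate 1 (41.7 CPM). Cox8a gave a log2 fold change of 0.00 ± 0.17, and Cox6c was the lowest at −0.19. Cox6a2, the muscle form of subunit 6A, failed the count filter in this comparison, at 0 to 0.397 CPM in WT and 0.0482 to 1.38 CPM in KO22.

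In complex V, 7 of 18 genes were higher and 0 lower. The highest was Atp5mc3, one of 3 genes for the c subunit of the rotor, at 102, 62.5, 62.4 and 59.1 CPM in WT and 142, 151 and 192 CPM in KO22 (log2 fold change 1.19 ± 0.19, adjusted p = 0.000563), just under the limit of 1.2. The other c-subunit genes, Atp5mc1 and Atp5mc2, rose by 0.97 ± 0.26 and 0.92 ± 0.20 (adjusted p = 0.011 and 0.00376), but 76.4% and 88.0% of the 75-base stretches of their transcripts occur elsewhere in the genome, so their counts are uncertain. Atp5f1a rose by 0.89 ± 0.16 (adjusted p = 0.00127), from 630, 393, 421 and 380 CPM to 778, 858 and 888 CPM, with no overlap. Its partner Atp5f1b stood at 965, 547, 570 and 532 CPM in WT and 807, 886 and 875 CPM in KO22, where WT replicate 1 was the highest of the 7 libraries (0.41 ± 0.17, adjusted p = 0.072). Atp5pb and Atp5po of the peripheral stalk rose by 0.91 ± 0.12 and 0.85 ± 0.28 (adjusted p = 0.000251 and 0.0257), as did Atp5pf of the same stalk (0.72, adjusted p = 0.0138). The inhibitor Atp5if1 did not pass (0.49 ± 0.22, adjusted p = 0.0857), and Atp5f1d of the central stalk was lowest at −0.33.

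Complex I, the largest complex, had the lowest median, 0.25, with 7 of 37 genes higher and 2 lower. Ndufs1, which carries several iron-sulfur clusters of the electron input arm, rose from 92.0, 88.5, 86.5 and 85.9 CPM to 99.7, 140 and 152 CPM (log2 fold change 0.56 ± 0.13, adjusted p = 0.00567). Ndufv1, which binds NADH, and Ndufs7, a core subunit near the ubiquinone site, did not pass, with log2 fold changes of −0.07 and 0.27. The called genes were otherwise accessory subunits. Ndufb7 was the highest at 0.92 ± 0.24 (adjusted p = 0.0101), and Ndufa6 stood at 9.97, 10.8, 7.76 and 9.04 CPM in WT and 20.2, 15.3 and 18.6 CPM in KO22 (0.91 ± 0.16, adjusted p = 0.00123), above every WT library. Ndufb2 was the lowest of all 77 genes, at 16.4, 21.8, 19.4 and 20.0 CPM in WT and 7.87, 9.55 and 10.1 CPM in KO22 (−1.06 ± 0.13, adjusted p = 0.000167), and it was the only subunit gene whose KO22 libraries all lay below all WT libraries. Ndufb8 was also lower (−0.58 ± 0.19, adjusted p = 0.0273). Ndufa4 gave 0.37 ± 0.29 and did not pass.

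Counted by overlap alone, 14 of the 77 genes had all 3 KO22 libraries above all 4 WT libraries and 1 had them all below. Among all genes tested 24.8% lay wholly above and 25.3% wholly below. Fold changes in KO22 also differed by chromosome. The median over all tested genes of a chromosome ran from −0.54 on chromosome 10 to 0.60 on chromosome 8, and the medians were 0.37 on chromosome 15, which holds Cyc1 and Ndufa6, 0.27 on chromosome 9, which holds Uqcrc1, Cox7a2, Sdhd and Cox5a, and −0.45 on chromosome 6, which holds Ndufb2. Taken relative to the median of its own chromosome, Uqcrc1 remained at 1.32, while Cyc1 came to 1.18, Sdhb to 1.14, Cox7a2 to 1.07 and Ndufb2 to −0.61, so 1 gene was left past both limits.

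The difference between KO22 and WT was not the same in the 2 batches. In batch 9262 (3 WT and 2 KO22 libraries) 70 of the 78 subunit genes were higher in KO22, with a median difference in log2(CPM + 0.5) of 0.59. In batch 8995 (1 library each) 23 of 78 were higher, with a median of −0.25. Over all genes with a mean of at least 1 CPM, 51.6% were higher in batch 9262 (median 0.04) and 48.0% in batch 8995 (median −0.04). A test of the interaction of batch and clone, chosen after these medians were seen, called 60 of the 77 genes as having a larger KO22 difference in batch 9262 and 0 a smaller one (adjusted p under 0.05), where 17.2% of all genes were larger and 9.34% smaller. Since batch 8995 holds 1 library of each group, the spread in this test comes from batch 9262 alone (3 residual degrees of freedom), and the p-values assume that the libraries of batch 8995 vary alike. The median of this interaction was 0.92 over the subunit genes and 0.14 over all genes. DESeq2 was not run for the interaction, and 74 of the 77 values were positive. The 60 genes were 27 of complex I, 3 of complex II, 9 of complex III, 8 of complex IV and 13 of complex V.

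**Figure D3:**
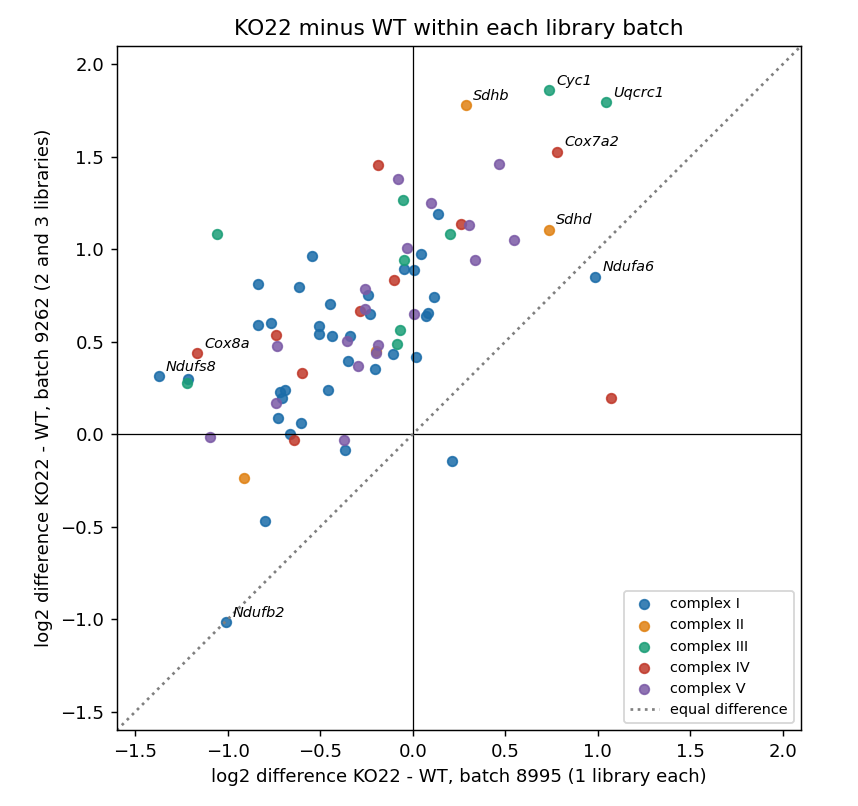
Difference in log2(CPM + 0.5) between KO22 and WT within batch 8995 (horizontal axis) and batch 9262 (vertical axis) for the 78 subunit genes, coloured by complex, with a dotted line where both are equal. Most points lie above the line, with medians of −0.25 and 0.59, while Ndufb2 lies on it.

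The interaction was largest in size for Uqcrb, a small subunit of complex III, at 2.26 ± 0.31 (adjusted p = 2.01e-05). Its level was 13.5 CPM in WT replicate 1 and 5.96, 6.38 and 6.46 CPM in the other WT libraries, but 6.23 CPM in KO22 replicate 1 and 11.7 and 16.3 CPM in the others. The order of the groups was thus opposite in the 2 batches. Cox5a showed the smallest adjusted p (1.67 ± 0.19, adjusted p = 2.15e-06), with WT at 41.7 CPM in batch 8995 and 16.9, 18.2 and 18.4 CPM in batch 9262, and KO22 at 36.5 CPM and then 45.7 and 54.4 CPM. Ndufs8 followed (1.72 ± 0.23, adjusted p = 1.61e-05), at 32.6 CPM in WT replicate 1 against 12.3 CPM in KO22 replicate 1. Cox8a, whose overall log2 fold change was 0.00, was lower by 1.16 in batch 8995 and higher by 0.44 in batch 9262.

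In all, 21 of the 77 genes were higher in KO22 in both batches, 7 were lower in both, 48 were lower in batch 8995 and higher in batch 9262, and 1 was the other way round. Of the 25 genes called higher over both batches, 7 were lower in KO22 in batch 8995, by −0.19 for Cox5a to −0.03 for Atp5pf, the others being Cox5b, Atp5mc1, Uqcrq, Ndufa13 and Uqcr10. The genes past both limits were all higher in both batches. Uqcrc1 was higher by 1.05 in batch 8995 and by 1.80 in batch 9262, Cyc1 by 0.74 and 1.86, Cox7a2 by 0.78 and 1.53, and Sdhb by 0.29 and 1.78. The differences of all 4 were larger in batch 9262 by the interaction test (adjusted p = 0.00237, 6.85e-05, 0.0199 and 7.78e-05). Ndufb2 was lower by 1.01 and 1.02, Ndufa6 higher by 0.99 and 0.85, and Sdhd higher by 0.74 and 1.11, and for these 3 the interaction did not pass (adjusted p = 0.985, 0.688 and 0.118). In batch 9262 alone 60 of the 77 genes were higher and 2 lower by the adjusted p, against 32.4% and 31.6% of all genes tested in that batch, and the 2 were Ndufb2 and Ndufb8.

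The batch step lay mostly in the WT and KO26 libraries. WT replicate 1 was above the mean of the other WT libraries in 77 of the 78 genes, by a median of 0.78 on the log2 scale, and the exception was Ndufb2. KO26 replicate 1 was above KO26 replicate 2 in 77 of 78, by a median of 1.34. KO22 replicate 1 was above the mean of the other KO22 libraries in 27 of 78, with a median of −0.11. Over all 16372 genes with a mean of at least 1 CPM the same medians were 0.02, 0.05 and −0.10. The 76 ribosomal protein genes moved with the subunit genes, with batch medians of 0.94 in WT, 1.60 in KO26 and 0.07 in KO22, and 67 of the 76 had a larger KO22 difference in batch 9262. The 2253 genes with a transcript under 1000 bases and a mean of at least 1 CPM had medians of −0.01 in WT, −0.09 in KO26 and −0.03 in KO22. This class was not matched for level and includes short subunit genes. The part of transcript length in the step was not tested. Depth differed as well, with 27537863 and 24175274 counts in WT and KO26 replicate 1 and 11863633 in KO22 replicate 1, and its part in the step was not tested.

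KO26 was compared with WT in a fit over all 9 libraries. The study set both KO26 libraries aside as outliers in its principal component analysis, so the KO26 values here rest on libraries that the study did not use. Of 78 subunit genes tested, 0 were higher and 0 lower by either rule, beside 1.21% and 0.719% of all genes past both limits and 2.36% and 1.13% by the adjusted p alone. DESeq2's Wald test also called 0, and 4 genes had an unadjusted p under 0.05, all of them higher in KO26: Ndufv3, Ndufa9, Atp5f1a and Sdhd. The smallest adjusted p was 0.114, for Ndufv3, at 33.6, 28.7, 29.6 and 26.9 CPM in WT and 52.2 and 37.0 CPM in KO26, where both KO26 libraries lay above all WT libraries (log2 fold change 0.46 ± 0.15). The median was 0.27. The extremes among genes at 1 CPM or more were Ndufa12 (0.64) and Ndufa1 (−0.48) in complex I, Sdhb (0.71) and Sdha (0.27) in complex II, Uqcrq (0.56) and Uqcrb (−0.13) in complex III, Cox8a (0.49) and Cox6c (−0.15) in complex IV, and Atp5pf (0.55) and Atp5mj (−0.25) in complex V. The 2 KO26 libraries did not give the same picture. KO26 replicate 1 was above WT replicate 1 in 73 of 78 genes (median 0.46). KO26 replicate 2 was above the mean of the WT libraries of its batch in 28 of 78 (median −0.12). Over all genes with a mean of at least 1 CPM these shares were 55.6% and 49.6%. Atp5f1b, for example, was at 1572 CPM in KO26 replicate 1 and 602 CPM in replicate 2. Without KO26 replicate 1 the median was −0.27, and without KO26 replicate 2 it was 0.75, so the sign of the KO26 median rests on 1 library.

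The clones were also compared with each other. Of 78 genes, 0 differed past both limits, where KO22 was higher in 7.56% and lower in 10.7% of all genes, and DESeq2 gave 0 as well, with 14 genes at an unadjusted p under 0.05. By the adjusted p alone 7 genes were higher and 5 lower in KO22, against 16.3% and 18.1% of all genes. Uqcrc1 (1.10 ± 0.24), Cyc1 (1.06 ± 0.33), Ndufa6 (1.01 ± 0.22), Cox7a2 (1.01 ± 0.30), Cox7b (0.89 ± 0.31), Atp5pb (0.68 ± 0.20) and Sdhd (0.59 ± 0.19) were higher in KO22, with adjusted p from 0.00458 to 0.0496. Ndufb2 (−0.89 ± 0.17), Atp5f1d (−0.84 ± 0.29), Ndufb8 (−0.84 ± 0.25), Sdhc (−0.72 ± 0.23) and Ndufv3 (−0.50 ± 0.15) were lower, with adjusted p from 0.00293 to 0.0452. This comparison shares the KO22 libraries with the one against WT. Without KO22 replicate 1 the genes higher in KO22 numbered 39, and without KO26 replicate 2 they numbered 1, so the count depends on single libraries.

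Among pathway genes outside the name pattern, Cycs, which encodes cytochrome c, was higher in KO22 (log2 fold change 1.24 ± 0.32, adjusted p = 0.00867) at 24.4, 11.6, 13.9 and 11.3 CPM in WT and 21.9, 41.1 and 43.7 CPM in KO22. As for Uqcrb, its KO22 library of batch 8995 was below WT replicate 1. Dmac2l, known as an ATP synthase coupling factor, was lower (−1.22 ± 0.24). Cox4i1, the main form of complex IV subunit 4, rose from 159, 78.4, 74.2 and 68.2 CPM to 175, 137 and 165 CPM (0.77 ± 0.17), and Cox7a2l, which joins complexes III and IV into supercomplexes, was lower (−0.58 ± 0.13). Of 6 such genes tested, 2 were higher and 2 lower. None of the 8 mitochondrially encoded subunit genes tested was called in KO22 by edgeR (0 also at an unadjusted p under 0.05), with a median of 0.11, and the batch medians of the 9 in the table were 1.11 in WT and −0.36 in KO22.

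The assembly factors, which build the complexes but are not part of them, changed in both directions in KO22. Of 19 for complex I, 9 were higher and 3 lower. Ndufaf4 (1.41 ± 0.19), Aifm1 (1.36 ± 0.16) and Ndufaf2 (1.22 ± 0.34) were the highest, and Nubpl, which delivers iron-sulfur clusters to complex I, was the lowest (−1.77 ± 0.19), at 12.95, 10.21, 10.997 and 10.55 CPM in WT and 2.68, 3.57 and 3.49 CPM in KO22. Aifm1 stood at 38.0, 34.3, 37.0 and 37.7 CPM in WT and 64.0, 112 and 110 CPM in KO22. Of 25 for complex IV, 10 were higher and 4 lower, led by Cmc2 (1.92 ± 0.26), a copper-chaperone-like factor, at 8.94, 5.76, 6.68 and 4.31 CPM in WT and 19.1, 22.4 and 31.5 CPM in KO22. Sco2, a copper chaperone, was also past both limits (1.32 ± 0.41) at 0.411 to 2.25 CPM in the 7 libraries. Of 9 for complex III, 4 were higher and 1 lower (Uqcc3, −1.30 ± 0.25), of 4 for complex II, 0 were higher and 2 lower, and of 5 for complex V, 1 was higher and 1 lower. Of 16 regulators of mitochondrial biogenesis, 6 were higher and 2 lower. Ppargc1a, the coactivator PGC-1α, was higher in KO22 at low levels, 0, 0.411, 0.785 and 0.718 CPM in WT and 2.33, 2.603 and 2.095 CPM in KO22 (2.62 ± 0.62, adjusted p = 0.00602), while its relative Ppargc1b was lower (−0.92 ± 0.27). Gabpa, Gabpb1, Nrf1 and Pprc1 were higher by 0.54, 0.64, 0.30 and 0.96 on the log2 scale. Over all 16 regulators the median log2 fold change was 0.16, and 10 lay above 0. The whole-genome shares given above are the background for all of these counts. The counts come from the fit over both batches. For complex I factors the median KO22 difference in log2(CPM + 0.5) was −0.16 in batch 8995 (7 of 19 above 0). In batch 9262 it was 0.79 (15 of 19). The regulators gave −0.22 and 0.30, and complex V factors −0.22 and 0.53. Complex II factors gave −1.02 and −0.30, complex III factors 0.17 and 0.14, and complex IV factors 0.10 and 0.29.

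In the tissue, 0 of 81 subunit genes were called by either rule between libraries labelled Prom1-KO and WT. Over all 24926 genes 0% were higher by either rule, 0.189% lower past both limits and 0.193% lower by the adjusted p alone. DESeq2's Wald test also called 0 of the 81, and 2 had an unadjusted p under 0.05. The tissue holds choroid and other cells besides RPE, so fewer cells of a type and less RNA per cell cannot be told apart. Several RPE markers were lower in the libraries labelled Prom1-KO. Of 16 RPE markers 5 were called lower and 0 higher, and the list summed to 2692 to 3673 CPM against 1300 to 1485 CPM. Their log2 fold changes ran from −6.06 to 0.37, with a median of −0.74. Rpe65 was at 280, 204 and 287 CPM in WT and 1.13, 5.97 and 4.48 CPM in Prom1-KO. Rpe65 also drives the Cre of these mice, and the part of the Cre in its level was not tested. The summed level of the subunit genes was 1469, 1194 and 1195 CPM in WT and 1271, 1429 and 2015 CPM in Prom1-KO. The part of the lower RPE markers in the subunit levels was not tested.

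Prom1-KO replicate 3 stood apart from the other 5 tissue libraries. Mitochondrial ribosomal RNA took 80.4% of its counts against 55.3% to 63.2% in the others, and its TMM scaling factor was 0.488 against 1.07 to 1.33, so its CPM values rest on a strong scaling. It was the highest library for many small subunits. Ndufb1 was at 10.9, 10.0 and 11.1 CPM in WT and 11.4, 11.9 and 37.9 CPM in Prom1-KO (log2 fold change 0.93 ± 0.45, adjusted p = 0.669), Uqcrb at 10.7, 12.5 and 9.11 CPM against 9.36, 10.9 and 32.4 CPM (0.70, adjusted p = 0.757), and Cox7c at 30.5, 22.9 and 25.5 CPM against 26.7, 30.7 and 71.6 CPM (0.71, adjusted p = 0.686). In each the high group mean comes from that library. The median over the 81 genes was 0.23 and fell to 0.05 without it. All 3 Prom1-KO libraries lay above all WT libraries in 5 genes, Atp5if1 and Sdha among them, and below in 0, where 6.71% and 7.89% of all genes did so. Atp5if1, the inhibitor that stops ATP hydrolysis when the proton gradient fails, had the smallest adjusted p of the members, 0.432, at 26.7, 20.5 and 20.6 CPM in WT and 30.1, 32.1 and 53.8 CPM in Prom1-KO (0.77 ± 0.25). The lowest log2 fold changes of complexes I to V were −0.13 for Ndufs5, 0.01 for Sdhc, −0.07 for Uqcr10, −0.29 for Cox6b2 and −0.36 for Atp5mc2, with adjusted p from 0.859 to 0.994, and Sdhb (0.38) was the highest of complex II.

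**Figure D4:**
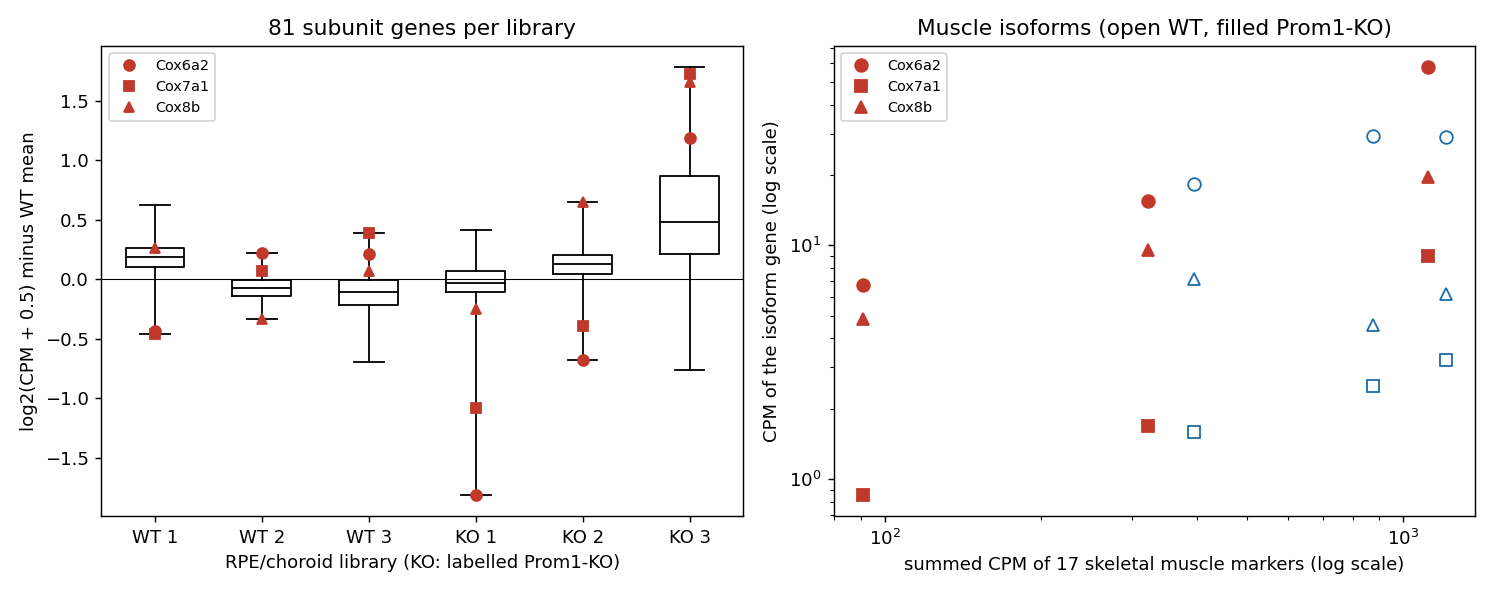
Left, the 81 subunit genes in the 6 RPE/choroid libraries as log2(CPM + 0.5) minus the WT mean (box, quartiles and median; whiskers, lowest and highest gene; symbols, 3 muscle isoforms). Right, CPM of the muscle isoforms against the summed CPM of 17 skeletal muscle markers on log axes; the library at 1117 CPM of muscle markers among the filled points is Prom1-KO replicate 3, and Cox6a2 ran from 6.76 to 57.8 CPM over the 6 libraries.

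Complex IV has heart and skeletal muscle forms of some subunits, and 3 of them were measured in the tissue. Cox6a2 stood at 18.3, 29.3 and 29.1 CPM in WT and 6.76, 15.5 and 57.8 CPM in Prom1-KO, and Cox7a1 at 1.585, 2.503 and 3.236 CPM and 0.854, 1.68 and 8.99 CPM. Both were lowest in Prom1-KO replicate 1 and highest in replicate 3. The summed level of the skeletal muscle markers was 396, 877 and 1213 CPM in WT and 90.8, 322 and 1117 CPM in Prom1-KO, so it was lowest in the same library, and its part in these levels was not tested. Cox8b was at 7.17, 4.55 and 6.19 CPM and 4.85, 9.53 and 19.6 CPM. The share of Cox6a2 in the Cox6a1 and Cox6a2 sum was 28.6% ± 8.20 in WT and 19.3% ± 12.2 in Prom1-KO (SD, n = 3 each, exact two-sided permutation test, p = 0.3, adjusted p = 0.7). The share of Cox7a1 was 18.2% ± 7.30 and 19.0% ± 16.4 (exact p = 1) and that of Cox8b 12.8% ± 2.32 and 17.3% ± 8.19 (exact p = 0.6). Cox6b2, the testis form of subunit 6B, took 15.5% ± 2.03 and 12.04% ± 3.78 (exact p = 0.2), and Cox4i2, the lung form of subunit 4, took 1.37% and 1.54% (exact p = 0.7). With 3 libraries against 3 the smallest p this test can give is 0.1.

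In mRPE the form of subunit NDUFA4 differed between libraries of one clone. Ndufa4l2, a paralog induced in hypoxia, took 30.7%, 37.0%, 32.1% and 34.8% of the Ndufa4 and Ndufa4l2 sum in WT, 71.8%, 17.1% and 14.9% in KO22, and 18.02% and 59.21% in KO26. The exact two-sided permutation test of the KO22 mean of 34.6% ± 32.2 against the WT mean of 33.7% ± 2.81 gave p = 0.971 (smallest possible 0.0286), and the difference was 41.1 percentage points in batch 8995 and −18.7 in batch 9262. Among the 3 c-subunit genes Atp5mc3 was at 40.9% ± 4.08 in WT and 44.5% ± 1.56 in KO22 (exact p = 0.229), which was higher in both batches, Atp5mc2 at 33.4% ± 1.39 and 31.0% ± 2.00 (exact p = 0.114), lower in both, and Atp5mc1 at 25.8% ± 3.08 and 24.5% ± 0.441 (exact p = 0.486). In the tissue Atp5mc1 took the largest share instead, 56.0% ± 2.79 in WT, and Atp5mc2 the smallest, 7.09% ± 2.42. Of the 75-base stretches of Atp5mc1 and Atp5mc2, 76.4% and 88.0% occur elsewhere in the genome, against 0% for Atp5mc3. The shares of these 3 genes are therefore uncertain in both kinds of sample. Over the 14 isoform shares tested in both kinds of sample the smallest adjusted p was 0.64. The muscle form Cox6a2 made up 0.109% of its pair in WT mRPE.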

How the data were processed

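Per the labels and methods, the authors trimmed reads with Trim Galore 0.6.7, aligned them to mm39 with STAR, took raw counts per gene from it, removed genes with low counts and deposited these counts; their size-factor-normalized values were not used. The labels name an NEB stranded kit and the methods a TruSeq one. Subunit genes were taken by symbol. Counts were fitted with edgeR 4.0.16 in R 4.3.3 (TMM, quasi-likelihood test, genes kept with 5 or more counts in 3 or more libraries, p adjusted by Benjamini-Hochberg over all genes), with batch as a term in mRPE; KO26 comparisons used all 9 libraries. CPM are TMM-scaled, and within-batch differences use a pseudocount of 0.5 CPM, which shrinks those of low genes. SE is the absolute log2 fold change over the square root of F. Isoform shares were tested by exact permutation. DESeq2 1.42.0 and the settings in the closing section were alternatives. The interaction of batch and clone and the fits without mitochondrially encoded genes were chosen after seeing the data. Scripts were tested on simulated counts.

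Members and lists were chosen with earlier results of these data known. The rule was to name genes past both limits, the highest and lowest of each complex, core subunits, isoform pairs and genes failing the filter. In other lists it was to name genes past both limits. By that rule the genes of the marker lists would be named too, but they are given as sums or counts, with Rpe65 as the 1 exception. Outside the rule, some other called members are named, as are Cox7a2l, Ppargc1b, Gabpa, Gabpb1, Nrf1 and Pprc1. Transcripts and positions are of GENCODE on GRCm39; promoters are of another build (GRCm38.p6), with 15 genes not matched, among them Atp5f1a, Cyc1, Ndufs1, Sdhc and Uqcrc2. The values of 1 member are not reported here; it is counted in the totals. Over 50% of 75-base stretches of 5 members (Atp5mc1, Atp5mc2, Atp5mg, Cox7c and Ndufs5) recur elsewhere in the genome, and over 10% in 13.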

Additional observations from a re-analysis of the deposited data

Results flagged for a closer look

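In WT mRPE, replicate 1, the only WT library of batch 8995, lay apart from the other 3 by Dixon's test (the 95% critical value for 4 samples) in the summed CPM of complex I (gap over range 0.88), complex IV (0.953) and complex V (0.92). It was apart, and highest, in 34 of the 78 subunit genes, which are all 34 in which any WT library stood apart, and Cox7a2 (0.907) was among them. Chance flags about 1 in 20 groups, and these genes share the same 4 libraries. The share of all genes in which WT replicate 1 stands apart is not given here, so the 34 cannot be set against it.

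The KO22 difference was larger in batch 9262 than in batch 8995 for 60 subunit genes by the interaction test, led by Cox5a (1.67), Ndufs8 (1.72) and Uqcrb (2.26, all on the log2 scale). Over all genes 17.2% were larger by that test. Batch 8995 has 1 library of each group there, so the spread in that test is that of batch 9262. Between the clones, KO22 was higher than KO26 in 7 of 78 subunit genes and lower in 5 by the adjusted p alone. Of all genes 16.3% were higher and 18.1% lower, so these counts do not set the subunit genes apart.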

How the results depend on the processing

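DESeq2's size factors, no count filter, edgeR's filterByExpr and leaving out mitochondrially encoded genes kept each count and median within 1.5 times or 1 SD of its value wherever they were run, as did DESeq2's Wald test (8 genes against 7 higher in KO22 than in KO26). For KO22 against WT, batch 9262 alone gave 60 higher by the adjusted p and 10 past both limits instead of 25 and 4. With no batch term 7 of the 28 genes called higher or lower lost their call, and in a fit over all 9 libraries 5 did. Relative to the chromosome median 1 was past both limits, and with a limit of 1 in place of 1.2, 7 were higher and 1 lower. The ratio of the 2 libraries of batch 8995, an alternative chosen after seeing the data, reversed the median to −0.25. Leaving out 1 library gave 13 to 60 higher, 1 to 4 lower, 2 to 10 higher past both limits, 0 lower past both and medians of 0.07 to 0.62. The high counts came without WT replicate 1 (59) or KO22 replicate 1 (60), which both remove batch 8995 from the comparison, and the low one without KO22 replicate 3 (13, and 2 past both limits). For KO26 against WT, a fit of the WT and KO26 libraries alone called 3 higher. Leaving out 1 library gave 0 to 6 higher (6 without KO22 replicate 1), 0 in the other counts and medians of −0.27 to 0.75. For KO22 against KO26, a fit with no batch term gave 2 higher, 2 lower and a median of −0.12 in place of 0.12. Leaving out 1 library gave 1 to 39 higher, 1 to 5 lower, 0 to 12 and 0 to 1 past both limits, and medians of −0.33 to 0.67; 12 were past both limits without KO26 replicate 1. In RPE/choroid each alternative called 0, with medians of 0.047 to 0.35 when a library was left out. In batch 9262 alone the KO22 minus WT difference in isoform share was 0.079 percentage points for Cox6a2 in place of 0.569, and −18.7 for Ndufa4l2 in place of 0.916. None of the 28 and 12 single genes called reversed in the refitted alternatives, but in the ratio of batch 8995, 7 of the 25 called higher in KO22 were lower; without KO22 replicate 3, 14 of the 28 lost their call. The causes were not tested. No paired analysis was possible because the labels give no replicate numbers that the groups share; the batch numbers in the library names served as a term of the fit instead.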
